A study of Mus musculus with 16 samples.

Results

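AP-1 and immediate early transcription factors were followed through livers that had lost ARID1B alone or ARID1A together with ARID1B. The group comprised 10 genes taken by name from a list of such factors, of 24394 gene names that both count tables share: the Jun family (Jun, Junb, Jund), the Fos family (Fos, Fosb, Fosl1, Fosl2), Atf3, Egr1 and Klf6. These genes and the other lists below were chosen with earlier results of these data known. Counts set against the share of all genes are therefore descriptions, not independent tests. Messenger RNA of whole mouse liver had been sequenced in 16 libraries. DKO livers (4 libraries) were homozygous for floxed Arid1a and floxed Arid1b and carried the Cre transgene Alb-Cre (ARID1A f/f and ARID1B f/f with Alb-Cre+), and their controls (4 libraries) had the same floxed alleles without Cre (Alb-Cre-). BKO livers (4 libraries) were ARID1B f/f with Alb-Cre+, and their controls (4 libraries) ARID1B f/f with Alb-Cre-. Alb-Cre is driven by the albumin promoter and acts mainly in hepatocytes and their precursors, and it can also act in bile duct cells. The RNA covers all cells of the liver, including those without Cre activity. No group lost ARID1A alone, and Cre was present in knockout livers only, so effects of Cre or of ARID1A loss by itself cannot be told apart from those reported. Age, sex, strain background and any treatment were not given in the sources used here.

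AP-1 is a family of dimers of basic leucine zipper (bZIP) proteins. Jun proteins can pair with each other, Fos proteins need a Jun partner, and ATF3 pairs with Jun proteins or binds as a homodimer that mostly represses. Most of these genes are immediate early genes: growth factors, stress and tissue injury switch them on through MAP kinases without new protein synthesis, and their mRNAs decay within a short time. In mouse liver they rise early in regeneration, and hepatocyte c-Jun is needed for normal regeneration. AP-1 can recruit the BAF chromatin remodelling complex, of which ARID1A or ARID1B is a subunit, to enhancers.

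Libraries held 8699417 to 11031443 counts in DKO livers and their controls, and 21151726 to 40551934 counts in BKO livers and theirs. Levels are given as CPM, the counts scaled by the TMM method to a common library size, where 1 count equalled 0.0821 to 0.126 CPM for DKO and its controls and 0.0242 to 0.0490 CPM for BKO and its controls. Arid1b, the gene deleted in both models, was at 45.4 to 78.0 CPM in DKO livers against 80.7 to 97.3 CPM in their controls, and at 40.1 to 48.4 CPM in BKO livers against 81.9 to 86.4 CPM in theirs. Arid1b was called lower in both (edgeR adjusted p = 0.0167 in DKO and 0.00154 in BKO). Arid1a was at 99.6 to 114 CPM in DKO livers against 112 to 136 CPM in their controls (adjusted p = 0.149), so gene-level counts do not show its labelled loss. Albumin (Alb), the main secreted product of hepatocytes, made up 3.76% to 6.38% of the counts of DKO livers, 8.62% to 9.94% of those of their controls and 6.77% to 9.30% in BKO livers and theirs. Libraries DKO-7068 and DKO-7070 were the most alike of the pairs within a group, their chi-square per degree of freedom being 6.92 against 25.4 to 114.3 in other pairs, and they were kept as 2 libraries because they still differed by more than sampling noise. Nothing in the labels beyond the animal tags says that libraries came from separate mice, so p-values measure the spread between these libraries.

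The promoters of 8 of the 10 genes, all but Egr1 and Fosl1, matched the RefSeq promoter table (GRCm38.p6), whose windows run from 250 bases before to 50 bases after a RefSeq gene start. For Atf3 and Fosl2 this start lies inside the GENCODE M21 locus, downstream of the outer start given there. Promoters of 6 genes are shown over the 140 bases before the start, because each holds 1 of 2 short elements known to bind ATF, CREB or Jun-containing dimers. Capitals mark TGACG, the core of the cAMP response element, on either strand, and TGACATCA, the element through which Jun is known to regulate its own gene.
Fos, chr12:85473750-85473889, plus strand: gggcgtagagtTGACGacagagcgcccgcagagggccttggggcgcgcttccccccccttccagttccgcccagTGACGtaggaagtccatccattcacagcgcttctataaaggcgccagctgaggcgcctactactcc
Fosb, chr7:19310046-19310185, minus strand: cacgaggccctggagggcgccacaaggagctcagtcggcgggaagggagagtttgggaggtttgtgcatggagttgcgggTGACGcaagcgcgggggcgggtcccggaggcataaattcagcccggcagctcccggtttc
Junb, chr8:84978749-84978888, minus strand: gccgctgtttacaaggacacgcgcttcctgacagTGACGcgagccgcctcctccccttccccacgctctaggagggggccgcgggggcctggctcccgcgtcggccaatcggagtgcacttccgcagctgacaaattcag
Atf3, chr1:191183334-191183473, minus strand: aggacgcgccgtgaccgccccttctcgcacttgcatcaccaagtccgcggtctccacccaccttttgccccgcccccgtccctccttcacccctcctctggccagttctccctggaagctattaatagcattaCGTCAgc
Jun, chr4:95052223-95052362, minus strand: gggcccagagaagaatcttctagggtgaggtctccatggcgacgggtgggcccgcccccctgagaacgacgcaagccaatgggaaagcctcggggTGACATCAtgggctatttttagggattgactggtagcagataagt
Klf6, chr13:5861349-5861488, plus strand: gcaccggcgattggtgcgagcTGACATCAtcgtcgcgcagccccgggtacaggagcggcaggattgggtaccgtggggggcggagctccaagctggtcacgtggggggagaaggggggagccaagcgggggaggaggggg
TGACG was found in the windows of Fos, Fosb, Junb and Atf3, thus in 4 of the 8 genes, and in 23.0% of the 27025 genes in the table. TGACATCA was found in the windows of Jun, at bases -45 to -38 from the start, and of Klf6, at bases -119 to -112, and in 4.18% of all genes. No window held both elements. The full cAMP response element TGACGTCA, the AP-1 sites TGACTCA and TGAGTCA (counted together), the CArG box of serum response elements and the EGR site GCGTGGGCG were in 0 of the 8 windows, against 2.03%, 5.95%, 1.81% and 0.707% of all genes. Both strands were read, and TGACG counts also where it lies inside TGACGTCA. These matches describe the letters of the windows and say nothing of binding. Elements more than 250 bases before the start, and any of Egr1 and Fosl1, were not read.

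The first comparison asked how combined loss of ARID1A and ARID1B changed these genes. Of the 10, 9 passed the filter on low counts, 8 of these were higher in DKO livers at a Benjamini-Hochberg adjusted p under 0.05, 0 were lower, and Jund did not pass. Fosb met the filter's cutoff of 1.04 CPM in DKO libraries only, so its place among the 9 rests on the group in which it is high; of the other 8, 7 were called higher. Of all 12848 genes tested, 35.8% were called in either direction and 19.2% were called higher (2467 higher and 2137 lower). Scaled by total counts alone, 3266 were higher and 1269 lower, the median over all genes moved to 0.20 on the log2 scale, and 9 of the 9 genes were called. The median log2 fold change over the 9 genes was 2.14, the value of Fosb itself, against 0.02 over all tested genes. All 9 had a fold change above 0, as did 51.6% of all tested genes. In 7 of the 9, Fosb among them, every DKO library lay above every control library, as it did for 18.5% of all tested genes. The groups of Fosl2 and Jund overlapped. The summed levels of macrophage, stellate cell, bile duct and neutrophil markers were higher in every DKO liver than in every control, and in whole liver more cells of a type and more RNA per cell cannot be told apart.

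Among the Jun genes, Jun itself, the main transactivating subunit (chromosome 4, 95049034 to 95052222 on GRCm38, a gene with a single exon), was at 57.8, 63.3, 57.1 and 62.9 CPM in the 4 DKO livers, against 22.1, 34.8, 14.2 and 22.6 CPM in the 4 control livers. The DKO values lay close together and the groups did not overlap. The means were 60.3 ± 3.29 CPM in DKO livers and 23.4 ± 8.51 CPM in controls (SD, n = 4 each; log2 fold change 1.36 with SE 0.22; adjusted p = 0.00114, edgeR). Junb, which can replace or oppose Jun depending on the promoter (chromosome 8, 84974484 to 84978718), stood at 29.6 CPM (DKO-7068), 27.5 CPM (DKO-7070), 66.3 CPM (DKO-7112) and 75.7 CPM (DKO-7137) among the DKO livers, against 7.61, 12.4, 11.8 and 16.0 CPM in controls. DKO-7112 and DKO-7137 were far above DKO-7068 and DKO-7070, and all 4 were above the controls (means 49.8 ± 24.8 CPM in DKO livers and 11.96 ± 3.45 CPM in controls; log2 fold change 2.06 with SE 0.39; adjusted p = 0.00427, edgeR). Jund, which is expressed in resting cells and is little induced by growth factors (chromosome 8, 70698949 to 70700616), had 89.4, 102, 126 and 138 CPM in DKO livers, against 87.1, 82.3, 79.9 and 100.4 CPM in controls. Its groups overlapped, and the difference did not pass (means 114 ± 22.3 CPM in DKO livers and 87.4 ± 9.18 CPM in controls; log2 fold change 0.38 with SE 0.15; adjusted p = 0.068, edgeR). The Jund difference passed with scaling by total counts, at 0.54 (adjusted p = 0.00377), without DKO-7068, at 0.47 (adjusted p = 0.0303), and with the series of animal tags as a term, at 0.37 (adjusted p = 0.0254).

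All 3 Jun genes overlap an annotated gene on the opposite strand in GENCODE M21. Junb shares 173 exon bases with Prdx2, Jun 232 with the antisense gene Junos, and Jund 877 of its 1668 exon bases with the antisense gene Gm11175. The strand setting of the counting was not given in the sources used here. Without it, reads of these stretches cannot be told apart. Prdx2 had 410 to 519 counts per DKO library and 441 to 544 counts per control library, ranges that overlap.

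Fos, the prototype immediate early gene (chromosome 12, 85473890 to 85477273), was low throughout the DKO experiment. It was at 4.11, 3.96, 4.02 and 7.25 CPM in DKO livers, from 37 to 70 counts each, against 1.46, 0.477, 0.449 and 1.14 CPM in controls, from 4 to 13 counts each. The groups did not overlap, and library DKO-7137 stood above the other 3 DKO livers (means 4.83 ± 1.61 CPM in DKO livers and 0.879 ± 0.498 CPM in controls; log2 fold change 2.46 with SE 0.40; adjusted p = 0.000966, edgeR). Fosb, a close paralog of Fos (chromosome 7, 19302696 to 19310051), was at 2.63, 2.07, 2.50 and 1.24 CPM in DKO livers, against 0.672, 0.477, 0.224 and 0.505 CPM in controls, where it rested on 2 to 6 counts per library. The groups did not overlap either (means 2.11 ± 0.625 CPM in DKO livers and 0.470 ± 0.185 CPM in controls, log2 fold change 2.14 with SE 0.40). Fosb passed the count filter only through the DKO libraries, in which it is high. Its p-value in this fit is therefore left out, and the gap between the groups is no independent support. Fosl2, which encodes FRA-2 (chromosome 5, 32135801 to 32157842), was at 22.3, 25.2, 34.5 and 38.1 CPM in DKO livers, against 18.4, 22.7, 11.8 and 16.4 CPM in controls. Library DKO-7068 lay below the highest control, so the groups overlapped, and the change was the smallest of the 8 that passed (means 30.0 ± 7.52 CPM in DKO livers and 17.3 ± 4.54 CPM in controls; log2 fold change 0.79 with SE 0.22; adjusted p = 0.0202, edgeR). It did not pass without DKO-7112, at 0.69 (adjusted p = 0.0507), without DKO-7137, at 0.65 (adjusted p = 0.0523), or without control WT-7139, at 0.75 (adjusted p = 0.0532).

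Fosl1, which encodes FRA-1 and is itself switched on by AP-1 (chromosome 19, 5447547 to 5455946), did not pass the count filter. It had 5, 1, 1 and 4 counts in the DKO libraries and 0 counts in each of the 4 controls. Against a floor of 3 counts over the control group its mean in DKO livers, 0.256 ± 0.181 CPM, was at least 3.06-fold higher, where the floor covers counting error only. With no count filter it was called from these 11 counts, with an edgeR adjusted p of 0.0376 over 18638 genes. Of its exon bases, 1163 of 2033 also belong to Ccdc85b on the opposite strand, which had 58 to 87 counts per DKO library and 55 to 94 per control library.

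Atf3, a stress-induced bZIP factor (chromosome 1, 191170296 to 191218039), was at 9.53, 11.3, 8.90 and 13.1 CPM in DKO livers, against 3.81, 2.58, 1.01 and 1.26 CPM in controls. All DKO libraries were above all controls, and the means were 10.7 ± 1.88 CPM in DKO livers and 2.16 ± 1.29 CPM in controls (log2 fold change 2.29 with SE 0.34; adjusted p = 0.000661, edgeR). Egr1, a zinc finger factor induced through serum response elements (chromosome 18, 34859823 to 34864984), was at 34.7 CPM (DKO-7068), 38.1 CPM (DKO-7070), 61.4 CPM (DKO-7112) and 93.8 CPM (DKO-7137) among the DKO livers, against 4.14, 12.3, 5.83 and 11.0 CPM in controls. It was 6.86-fold higher by the means, the largest fold among the 8 called genes, with DKO-7112 and DKO-7137 again above DKO-7068 and DKO-7070 (means 57.0 ± 27.2 CPM in DKO livers and 8.32 ± 3.94 CPM in controls; log2 fold change 2.77 with SE 0.44; adjusted p = 0.00182, edgeR). Klf6, a zinc finger factor that responds to liver injury (chromosome 13, 5861482 to 5870394), was at 55.5 CPM (DKO-7068), 59.3 CPM (DKO-7070), 61.9 CPM (DKO-7112) and 106 CPM (DKO-7137) among the DKO livers, against 13.4, 15.8, 13.8 and 17.5 CPM in controls. It combined a 4.67-fold difference with a narrow range of control values, and had the lowest p of the 9 tested genes (means 70.8 ± 23.9 CPM in DKO livers and 15.2 ± 1.91 CPM in controls; log2 fold change 2.22 with SE 0.22; adjusted p = 6.2e-05, edgeR). Without DKO-7137, the highest library, its log2 fold change was 1.95 (adjusted p = 1.92e-05).

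**Figure D1:**
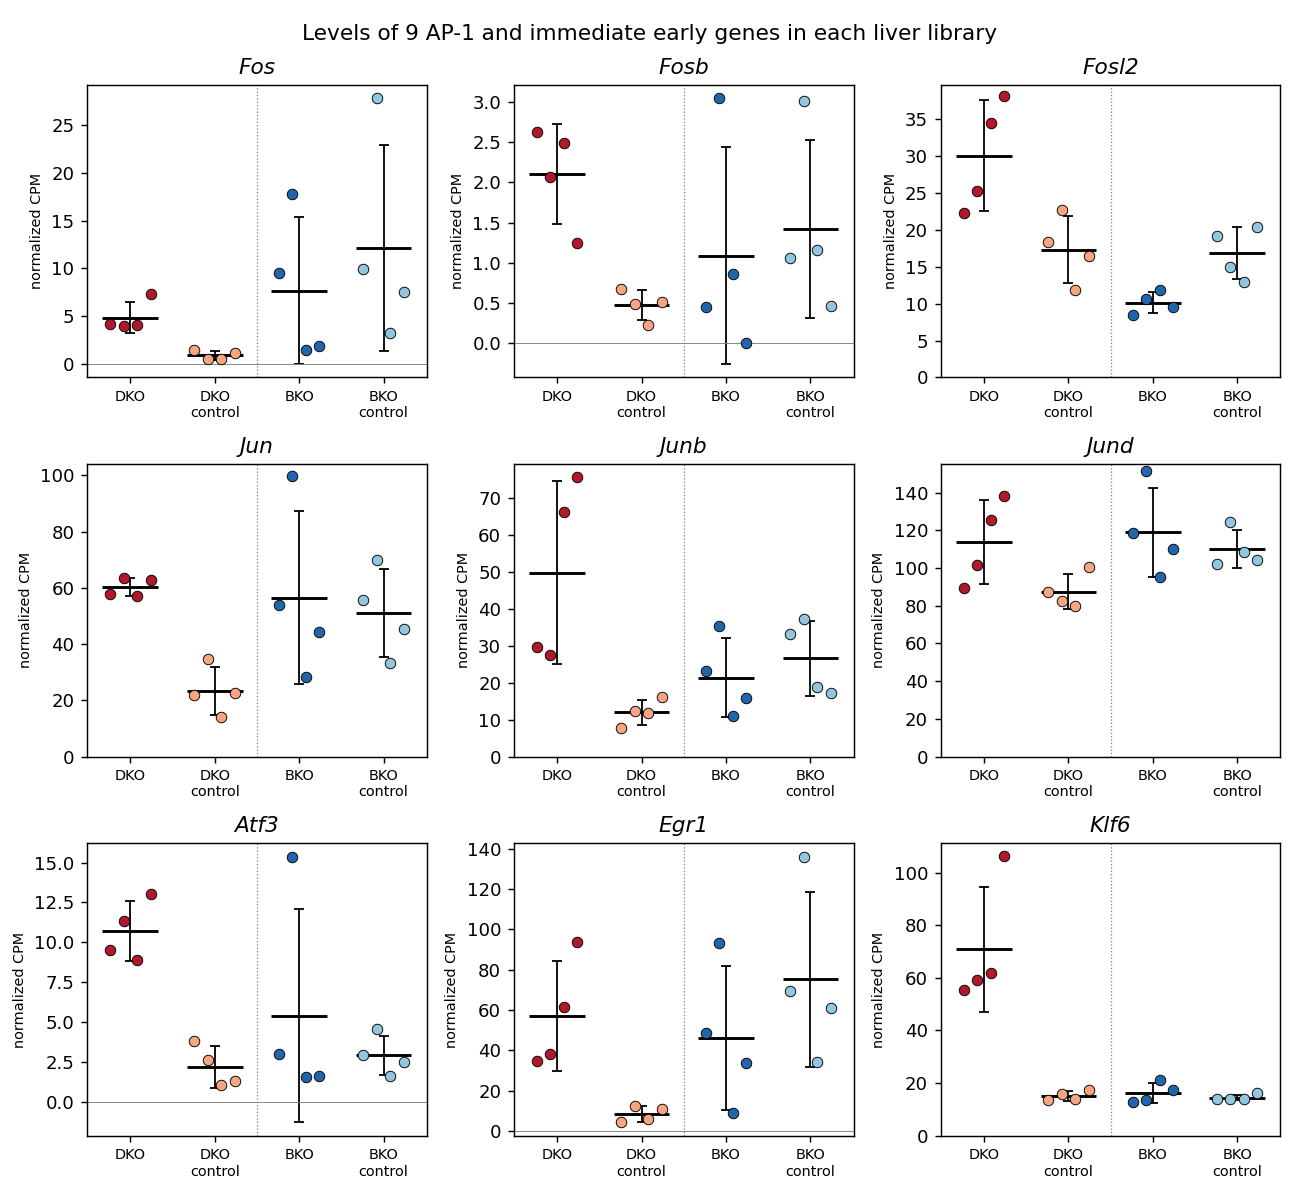
Normalized CPM of the 9 tested genes (vertical axes start at or just below 0) in each library of the DKO, DKO control, BKO and BKO control groups. Points are libraries, thick lines means and bars ± 1 SD (n = 4 each); the DKO points of Jun, Junb, Fos, Fosb, Atf3, Egr1 and Klf6 all lie above their control points, while the BKO and BKO control points overlap for every gene but Fosl2.

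Markers of other liver cells moved with these genes in DKO livers, where 19.2% of all tested genes were called higher and 16.6% lower. Macrophage markers summed to 592 to 776 CPM in DKO livers and 340.3 to 572 CPM in their controls, with 10 of 15 genes higher and 0 lower (3 of the 10, Cx3cr1, Trem2 and Gpnmb, met the count cutoff in DKO only), and every one of the 15 had counts in each DKO library. Stellate and fibroblast markers summed to 1985 to 2982 CPM in DKO livers and 572 to 778 CPM in controls, with 7 of 12 higher and 3 lower. Bile duct markers summed to 131 to 938 CPM in DKO livers and 42.9 to 64.1 CPM in controls, with 4 of 6 tested genes higher (Elf3 met the cutoff in DKO only) and 6 of the 12 listed not tested. Neutrophil markers summed to 11.8 to 60.7 CPM in DKO livers and 3.28 to 6.68 CPM in controls; of 10 listed, 7 were not tested and S100a8 and S100a9 met the cutoff in DKO only. Hepatocyte markers summed to 88427 to 119303 CPM in DKO livers and 136191 to 165059 CPM in controls, with 1 of 11 higher and 5 lower (2 and 4 with scaling by total counts). Endothelial markers had 2 of 12 (16.7%) higher, near the share of all genes, and 4 (33.3%) lower (3 and 0 with scaling by total counts). Of 12 markers of T, NK and B cells only Cd4 was tested, and it was higher. Library DKO-7137 had the highest levels of 7 of the 9 tested genes among DKO livers and the lowest macrophage, stellate and bile duct sums of the 4. Its neutrophil sum was not the lowest, at 18.3 CPM against 11.8 CPM in DKO-7068. The part of a changed cell makeup in the levels of the AP-1 and immediate early genes was not tested.

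Within DKO livers the tag series differed. Libraries DKO-7068 and DKO-7070 carry neighbouring tags and were lower than DKO-7112 and DKO-7137 for Junb, Egr1, Fosl2, Jund and Klf6, whereas Jun and Atf3 showed no such split. With DKO-7068 and DKO-7070 summed as 1 library, 8 of the 9 genes were called, as were 3965 of all 12998 tested genes. With the tag series as a term 9 were called, as were 5232 of all 12848. In a single edgeR fit over all 16 libraries, whose spread includes the BKO experiment, 6 were called, as were 5350 of all 14050 tested genes. Fos was then at 2.44 (adjusted p = 0.0798) and Fosb at 2.13 (adjusted p = 0.1).

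Between genes, levels were set side by side as CPM per kilobase of annotated exon (GENCODE M21). Jund was the highest in all 4 groups, at 68.2 ± 13.4 in DKO livers and 52.4 ± 5.50 in their controls, and its ranges did not overlap those of the next gene. In DKO livers Junb (21.6 ± 10.8), Jun (18.9 ± 1.03), Klf6 (16.1 ± 5.44) and Egr1 (12.7 ± 6.07) followed, each overlapping its neighbour. Atf3 (4.97 ± 0.871), Fosl2 (3.10 ± 0.777) and Fos (2.06 ± 0.686) came next, with Fosl2 and Fos overlapping, and Fosb (0.338 ± 0.100) and Fosl1 (0.126 ± 0.0891) were at the bottom with overlapping ranges. In the controls of DKO the order ran Jund, Jun (7.35 ± 2.67), Junb (5.20 ± 1.50), Klf6 (3.45 ± 0.435), Egr1 (1.85 ± 0.879), Fosl2 (1.79 ± 0.469), Atf3 (1.00 ± 0.600), Fos (0.374 ± 0.212) and Fosb (0.0752 ± 0.0296), with Fosl1 at 0 counts. Of the Jun family total per kilobase, Jund made up 61.2% to 65.7% in DKO livers and 75.1% to 83.6% in their controls. Junb made up 12.9% to 24.3% in DKO livers and 5.30% to 9.38% in controls, and Jun 14.5% to 21.4% in DKO livers and 7.77% to 16.6% in controls. The shares of Jund and Junb thus did not overlap between the groups, and those of Jun did.

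The second comparison asked whether ARID1B loss alone changed these genes. None of the 9 tested genes passed in BKO livers, with 0 higher and 0 lower by edgeR, where 0.583% of 14061 tested genes were called, 0.185% higher and 0.398% lower. Fosl2 was the only gene of the 9 at an unadjusted p under 0.05, as were 11.6% of all genes, and DESeq2 called 1 of the 9 and limma 0. In 0 of the 9 did every BKO library lie above every control library, as it did for 3.64% of all genes. The median log2 fold change was -0.31 over the 9 genes and 0.00 over all tested genes.

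Most of the genes varied several fold within each group of the BKO experiment. Fos was at 9.51 CPM (F1), 17.8 CPM (F3), 1.44 CPM (F4) and 1.89 CPM (F6) among the BKO livers, against 9.88 CPM (F2), 27.8 CPM (F5), 3.25 CPM (F5-2) and 7.54 CPM (F7) in the controls. F3 and F5 stood above the other libraries of their groups, and the groups overlapped (means 7.66 ± 7.71 CPM in BKO livers and 12.1 ± 10.8 CPM in controls; log2 fold change -0.65 with SE 1.00; adjusted p = 0.868, edgeR). Egr1 was at 48.4 CPM (F1), 93.4 CPM (F3), 8.64 CPM (F4) and 33.6 CPM (F6) among the BKO livers, against 69.3 CPM (F2), 136 CPM (F5), 34.1 CPM (F5-2) and 60.9 CPM (F7) in the controls. The values spread over a wide range in both groups and overlapped (means 46.0 ± 35.6 CPM in BKO livers and 75.1 ± 43.3 CPM in controls; log2 fold change -0.71 with SE 0.75; adjusted p = 0.791, edgeR). Jun was at 53.9, 99.7, 28.3 and 44.2 CPM in BKO livers F1, F3, F4 and F6, against 55.6, 70.1, 33.3 and 45.3 CPM in controls F2, F5, F5-2 and F7. The groups overlapped fully (means 56.5 ± 30.7 CPM in BKO livers and 51.1 ± 15.6 CPM in controls; log2 fold change 0.15 with SE 0.41; adjusted p = 0.936, edgeR). Atf3 was at 2.99, 15.4, 1.53 and 1.63 CPM in the same BKO livers, against 2.94, 4.55, 1.59 and 2.50 CPM in controls. The BKO mean of 5.38 ± 6.70 CPM rested on F3 (log2 fold change 0.92 with SE 0.83; adjusted p = 0.744, edgeR), and without F3 the log2 fold change of Atf3 was -0.51 (adjusted p = 0.725). Fosb was at 0.441, 3.05, 0.855 and 0 CPM in BKO livers, against 1.06, 3.02, 1.15 and 0.454 CPM in controls, and Junb at 23.3, 35.4, 11.0 and 15.8 CPM in BKO livers, against 33.3, 37.1, 18.7 and 17.2 CPM in controls. Both overlapped between groups. Fosl1 had 0 counts in the BKO livers and 1 count in the controls. The 2 control groups, scaled in separate fits, differed in level. Mean Fos, Jun and Egr1 were 0.879, 23.4 and 8.32 CPM in DKO controls, against 12.1, 51.1 and 75.1 CPM in BKO controls. For Fos, Fosb, Jun and Egr1 every DKO library lay within the range of the BKO controls. For Atf3, Klf6 and Fosl2 every DKO library lay above that range, and for Junb and Jund the ranges overlapped. Why the control groups differed was not tested.

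Fosl2, Jund and Klf6 were steadier. Fosl2 was at 8.48, 10.6, 11.8 and 9.55 CPM in BKO livers, against 19.2, 14.9, 12.9 and 20.3 CPM in controls. Every BKO value was below every control value, which held for 3.36% of all tested genes, but the difference did not pass (log2 fold change -0.73 with SE 0.16; adjusted p = 0.0739, edgeR). It passed with DESeq2, at -0.73 (adjusted p = 0.0052), with no count filter, at -0.73 (adjusted p = 0.04), and without control F5-2, at -0.84 (adjusted p = 0.037). Klf6 was at 16.1 ± 3.78 CPM in BKO livers and 14.5 ± 1.11 CPM in controls (log2 fold change 0.16 with SE 0.15; adjusted p = 0.763, edgeR), and Jund at 119 ± 23.7 CPM in BKO livers and 109.9 ± 10.1 CPM in controls (log2 fold change 0.11 with SE 0.13; adjusted p = 0.805, edgeR).

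The wide ranges followed the library. BKO library F3 had the highest level in its group for 7 of the 9 tested genes, and control library F5 for 7 of the 9 in its own group, Fosl2 and Klf6 being the exceptions in both. BKO library F4 was the lowest in its group for 6 genes, and control library F5-2 for 6. F5 and F5-2 share a tag, and the labels do not say whether 1 animal gave both. Fos was at 27.8 CPM in F5 and 3.25 CPM in F5-2, and Egr1 at 136.1 CPM in F5 and 34.1 CPM in F5-2. Heat shock genes, which also answer to stress, summed to 1378 to 1925 CPM in BKO livers (1924 CPM in F3 and 1433 CPM in F4) and 1163 to 1593 CPM in their controls (1377 CPM in F5 and 1268 CPM in F5-2). Macrophage markers summed to 205.8 CPM in F3 and 719 CPM in F4, the lowest and the highest BKO library, and their part in these ranges was not tested.

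**Figure D2:**
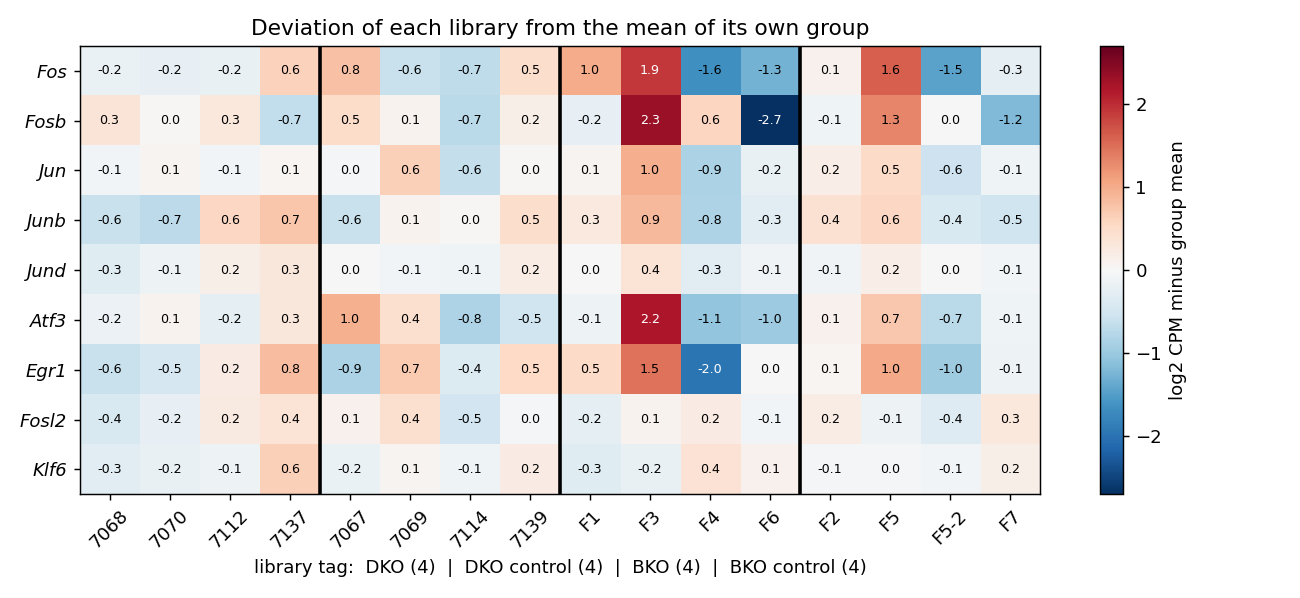
Deviation of log2 CPM (prior count of 2) from the mean of the library's own group for the 9 tested genes (rows) in the 16 libraries (columns, grouped as DKO, DKO control, BKO and BKO control). Fos, Fosb, Jun, Junb, Jund, Atf3 and Egr1 are all above the group mean in F3 and F5 and mostly below it in F4 and F5-2, whereas Fosl2 and Klf6 stay within 0.64 of the mean in every library.

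As a description of this shared variation, deviations from the group means over the 16 libraries were correlated with those of Fos, among 11441 genes. Among the AP-1 and immediate early genes alone, Atf3 (Pearson r = 0.81), Jun (0.75), Egr1 (0.73), Jund (0.69), Junb (0.64) and Fosb (0.56) had the highest values, and Fosl2 (0.08) and Klf6 (-0.25) the lowest. All genes share these libraries and their depth. Atf3 ranked 26 of all genes by this measure, Jun 63, Junb 239, Fosb 486, Fosl2 5004 and Klf6 8682. The 5 other genes most like Fos were Rcor3 (0.89), Tuba1c (0.88), Eif3d (0.88), Pard6b (0.88) and Lins (0.86). These correlations rest in part on F3 and F5: without both, r with Fos was 0.69 for Atf3 (rank 93), 0.58 for Jun (rank 351), 0.57 for Egr1 (rank 380) and 0.21 for Fosb (rank 3189).

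The third comparison set the DKO effect against the BKO effect in a single fit over all 16 libraries. The difference was positive for all 9 tested genes, as for 49.3% of all 14050. It was called positive for 4 and negative for 0, where 22.5% of all tested genes were called, with 11% called positive and 11.5% negative. An unadjusted p under 0.05 was reached by 6 of the 9 and by 34.9% of all genes. Klf6 had a difference of 2.04 (SE 0.28, adjusted p = 7.7e-05) by edgeR, Egr1 of 3.44 (SE 0.92, adjusted p = 0.0169), Junb of 2.34 (SE 0.61, adjusted p = 0.0139) and Fosl2 of 1.49 (SE 0.29, adjusted p = 0.00156). The Fosl2 difference joined a higher level in DKO livers, at 1.73-fold, with a mean in BKO livers 1.67-fold lower than in controls that did not pass by itself. Fos, at 3.09 (SE 1.27, adjusted p = 0.1), Fosb, at 2.46 (SE 1.25, adjusted p = 0.176), Jun, at 1.18 (SE 0.49, adjusted p = 0.101), and Atf3, at 1.34 (SE 0.97, adjusted p = 0.354), did not pass, with large standard errors for Fos, Fosb and Atf3, and Jund was at 0.23 (SE 0.21, adjusted p = 0.463). Without BKO library F3, 8 of the 9 were called by edgeR: Atf3 was then at 2.78 (adjusted p = 0.00243), Fos at 3.98 (adjusted p = 0.0293), Fosb at 3.83 (adjusted p = 0.0209) and Jun at 1.61 (adjusted p = 0.0102). Over all genes 2618 to 3314 were called with 1 library left out. With F3 and F5 both left out, a choice made after the data had been seen, 8 were called as well.

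**Figure D3:**
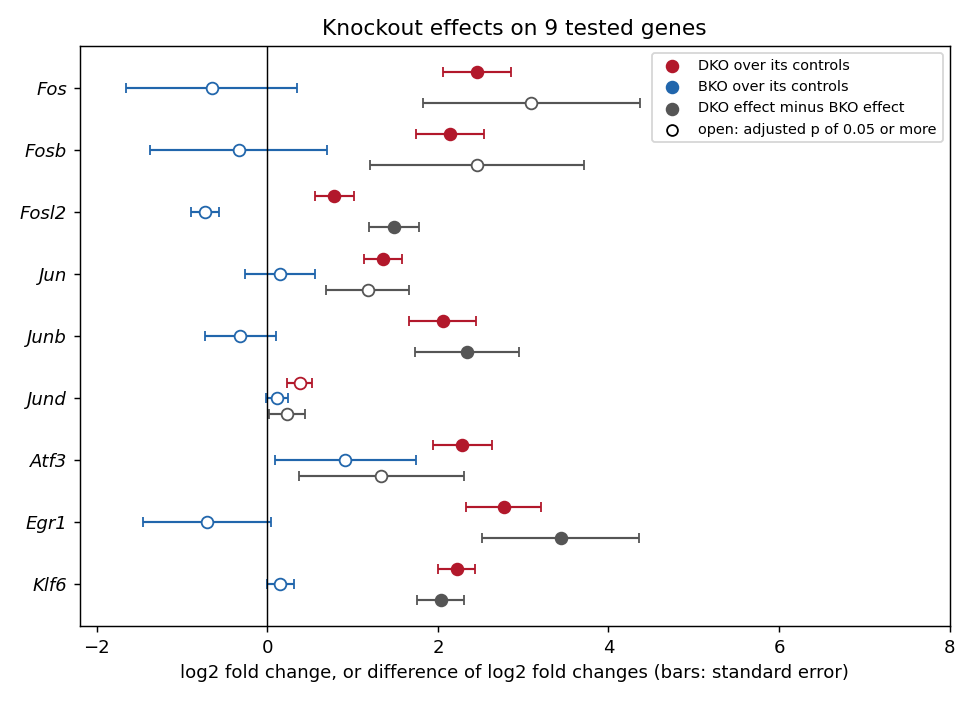
Log2 fold change of DKO over its controls, of BKO over its controls, and the difference of the 2 effects, for the 9 tested genes (horizontal axis; bars are standard errors; filled points have an edgeR adjusted p under 0.05). The DKO effects run from 0.38 for Jund to 2.77 for Egr1, the BKO effects lie between -0.73 and 0.92 with 0 filled points, and the difference is filled for Fosl2, Junb, Egr1 and Klf6.

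Other genes of the pathway were counted by list, the lists also having been chosen with earlier results of these data known. Of 48 listed immediate early genes outside the 10, 43 were tested, and 22 of these (51.2%) were higher and 3 (6.98%) lower in DKO livers, against 19.2% and 16.6% of all tested genes. Egr2, Egr3, Nr4a3 and Dusp5 met the cutoff in DKO libraries only, and 18 of the other 39 were higher. They included Ier5, at 19.5 ± 4.49 CPM in DKO livers against 6.21 ± 1.16 CPM in controls (log2 fold change 1.66, adjusted p = 0.000152), the survival factor gene Mcl1, at 176 ± 12.1 CPM in DKO livers against 101 ± 7.52 CPM in controls (log2 fold change 0.80, adjusted p = 0.000272), Csrnp1 (log2 fold change 1.11, adjusted p = 0.000411) and Tnfaip3, a brake on NF-kB signalling (log2 fold change 1.62, adjusted p = 0.000485). Egr2, a paralog of Egr1, was at 4.41 ± 1.68 CPM in DKO livers against 0.168 ± 0.266 CPM in controls. It was called in DKO livers and in the difference of the effects, but its place in the DKO test rests on the group in which it is high. In BKO livers 0 of 45 were called by edgeR, with 8 at an unadjusted p under 0.05, against 0.583% and 11.6% of all tested genes. The difference was positive and called for 14 of 46, against 11% of all genes. These 14 include Egr2, Egr3, Nr4a3 and Dusp5, which met the cutoff in DKO libraries only. The 22 ranged from 18 to 24 over the alternatives tried.

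Of 17 tested bZIP genes that pair with AP-1 or share its sites, 4 were higher and 3 lower in DKO livers, a share near the 35.8% of all genes. Maff, a small MAF protein gene, was at 12.3 ± 3.46 CPM in DKO livers against 3.21 ± 1.56 CPM in controls (log2 fold change 1.91, adjusted p = 0.0017), and Mafk was also higher (log2 fold change 0.62, adjusted p = 0.00288). Atf6, a sensor of unfolded proteins, was lower (log2 fold change -0.68, adjusted p = 0.00103). In BKO livers Atf5 was the 1 called gene of 19, at 196 ± 25.3 CPM in BKO livers against 122 ± 17.1 CPM in controls (log2 fold change 0.68, adjusted p = 0.0328). Over all genes tested in BKO livers 0.583% were called. Of 28 tested MAP kinase and SRF pathway genes, 6 were called higher and 6 called lower in DKO livers. Each is 21.4% of the list, near the 19.2% and 16.6% of all tested genes. In BKO livers 0 were called by edgeR, with 3 at an unadjusted p under 0.05, against 0.583% and 11.6% of all tested genes. With scaling by total counts, 7 were higher and 1 lower in DKO livers, so the lower calls depend on the scaling. Among single genes, the p38 kinase Mapk14 (log2 fold change -0.45, adjusted p = 0.00378) and its activator Map2k3, at 35.6 ± 3.31 CPM in DKO livers against 71.2 ± 11.0 CPM in controls, were lower, and the SRF partner genes Elk1 (log2 fold change 1.31, adjusted p = 0.00175) and Mkl2 (log2 fold change 0.81, adjusted p = 0.000485) were higher.

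Of 30 listed genes known as AP-1 targets in other systems, 22 were tested and 8 did not pass the count filter. Mmp12, Mmp13, Timp1, Plaur, Ereg, S100a6 and S100a8 met the cutoff in DKO libraries only, so a higher level there was largely set by the filter. Of the other 15, 13 were higher and 0 lower in DKO livers, against 19.2% and 16.6% of all tested genes. The intermediate filament gene Vim was at 95.0 ± 17.0 CPM in DKO livers against 22.0 ± 2.19 CPM in controls (edgeR adjusted p = 5.96e-06). The integrin gene Itgax was at 15.6 ± 3.56 CPM in DKO livers against 1.68 ± 0.558 CPM in controls (edgeR adjusted p = 1.92e-05). The matrix protease gene Mmp12 was at 21.1 ± 6.37 CPM in DKO livers against 0.215 ± 0.113 CPM in controls. The calcium-binding protein gene S100a6 was at 6.23 ± 1.10 CPM in DKO livers against 0.598 ± 0.172 CPM in controls. The p-values of Mmp12 and S100a6 are left out, because both passed the count filter only through the group in which they are high. Itgax, S100a8 and Spp1 also stand on the marker lists of macrophages, neutrophils and bile duct cells, and several others of the list are expressed by such cells. In BKO livers 0 of 19 were called by edgeR, with 1 at an unadjusted p under 0.05, against 0.583% and 11.6% of all tested genes. The difference of the effects was positive and called for 16 of 25, against 11% of all genes. These 16 include Mmp12, Mmp13, S100a6, S100a8 and Ereg, which met the cutoff in DKO libraries only. Anxa1 (log2 difference 2.56, adjusted p = 6.16e-05) and Lgals3 (log2 difference 2.45, adjusted p = 8.15e-05) had the lowest edgeR p of the list. Of 7 tested EGR1 corepressors and targets, 4 (57.1%) were higher and 0 lower in DKO livers, against 19.2% and 16.6% of all tested genes. These 4 were the growth factor genes Pdgfb (log2 fold change 2.21, edgeR adjusted p = 0.00137) and Pdgfa (log2 fold change 1.55, adjusted p = 0.00354), Tgfb1, which is on the AP-1 target list too (log2 fold change 0.91, adjusted p = 0.00313), and the EGR1 corepressor gene Nab2 (log2 fold change 0.64, adjusted p = 0.0109). In BKO livers 0 of the 7 were called by edgeR, with 2 at an unadjusted p under 0.05, against the same 0.583% and 11.6%. Of the 11 heat shock genes 0 were called higher in DKO livers and 1 (9.09%) was called lower, below the 19.2% and 16.6% of all tested genes. The 1 called was Hspb1 (log2 fold change -2.17, edgeR adjusted p = 0.0331).

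**Figure D4:**
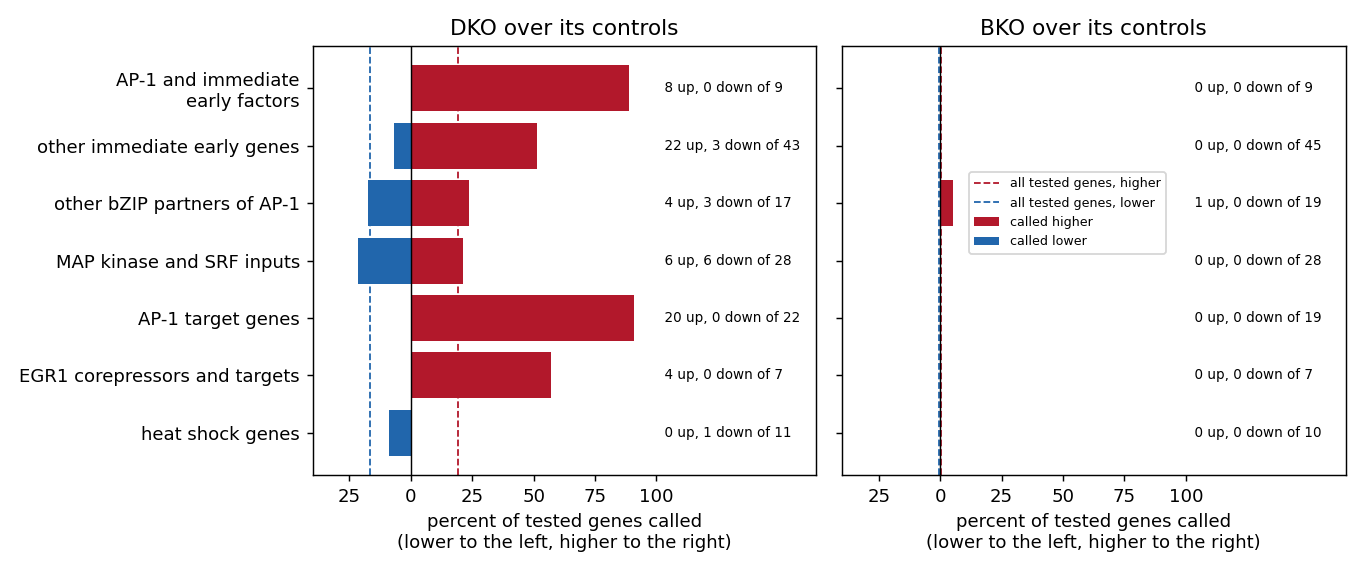
Percent of the tested genes of each list called higher (bars to the right) or lower (bars to the left) in DKO livers over their controls and in BKO livers over theirs, with the counts beside each bar. Dashed lines give the percent of all tested genes called in the same direction; among the 7 lists drawn, the DKO bars of the AP-1 and immediate early factors (8 of 9, Fosb having met the count cutoff in DKO only) and of the AP-1 targets (20 of 22, of which 7 met it in DKO only) reach furthest to the right, and 1 gene of the 7 lists is called in BKO livers.

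The annotated loci of these genes are short. Of the 10, 8 span at most 10000 bases, as do 22.9% of the 11948 tested genes matched to a single protein-coding entry. Jun and Jund have 1 exon, as do 1.6% of those genes. The loci lie on 9 chromosomes, Junb and Jund both on chromosome 8.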

How the data were processed

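Whole-liver RNA was purified with TRIzol and RNeasy columns and made into libraries with the NuGEN Ovation system, per the labels' protocols. The authors deposited whole-number counts per gene, in 1 table for each experiment. The submitters' processing notes name Trim Galore 0.4.1, HISAT2 2.1.0, featureCounts 1.6.2 and the builds GRCm38, mm10 and GRCh38; the annotation, the strand setting and the treatment of multi-mapping reads were not given in the sources used here. Names turned into dates (27 in the BKO table) were left out of the joint fit. Every sample column of both tables was matched to a sample (0 left over).

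Each experiment was fitted by itself with edgeR 4.0.16 in R 4.3.3 (filterByExpr, TMM, robust quasi-likelihood F-test, Benjamini-Hochberg adjusted p under 0.05), with group as the only term; the difference of the effects was fitted over all 16 libraries. The SE was taken as |log2 fold change| over the root of F. Folds are ratios of mean CPM. The fit was tested on simulated data. Alternatives were DESeq2 1.42.0, limma 3.58.1, other scalings and filters, each library left out, summed libraries and a tag series term. Genes named from lists are the 4 with the lowest p in DKO and 2 each in BKO and in the difference, among those called; 1 gene that this rule names is not reported here. The members and lists were chosen with earlier results of these data known. Lengths and positions come from GENCODE M21, and intervals and floors cover counting error only.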

Additional observations from a re-analysis of the deposited data

Results flagged for a closer look

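Among 37 groups of 4 libraries examined gene by gene, 4 held a library that stood far from the other 3. For independent, normally spread values about 1 in 20 would do so. CPM values need not be spread that way and the genes share libraries, so no excess over chance can be read from this count. Fos was at 7.25 CPM and Klf6 at 106 CPM in library DKO-7137, above the other DKO livers. Atf3 was at 15.4 CPM in BKO library F3, and Klf6 at 16.2 CPM in BKO control library F7, both above the other libraries of their groups. The Klf6 gap was small in size, its BKO control values running only from 13.8 to 16.2 CPM. The DKO effect differed from the BKO effect, by edgeR's test of the difference over all 16 libraries, for Egr1 (3.44 on the log2 scale), Junb (2.34), Klf6 (2.04) and Fosl2 (1.49).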

How the results depend on the processing

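No paired analysis was possible because knockout and control groups share no replicate tags, and the labels do not say that neighbouring tags pair animals. A fit with the tag series as a term called 9 of the 9 genes and 5232 of all genes in DKO, against 8 and 4604 without it. Over the 9 tested genes and 3 comparisons, 482 of the alternative values kept their direction and side of the threshold, 17 passed it only under the alternative, 5 no longer passed and 9 changed sign. All sign changes were in BKO, where none of these genes was called in any of them. With 1 library left out, the log2 fold change in BKO ran between -1.55 and 0.16 for Fos (0.16 without control F5), between -1.70 and 0.31 for Fosb (0.07 without F6, 0.31 without control F5), between -0.28 and 0.37 for Jun (-0.28 without F3, -0.0093 without control F5-2), between -0.025 and 0.20 for Jund (-0.025 without F3) and between -0.51 and 1.23 for Atf3 (-0.51 without F3). Without F3 and F5 it was -0.082 for Jun and -0.21 for Atf3. With 1 library left out, the count of these genes called in DKO was 7 to 9, where 3840 to 4584 of all genes were called. In BKO it was 0 to 1 with 1 library left out, and 1 with no count filter and with DESeq2. For the difference of the effects it was 4 to 8, the 8 without F3, and 8 without F3 and F5, a choice made after seeing the data. Over all genes 2618 to 3314 were called in the difference with 1 library left out. Over all genes in BKO, 82 were called; the count was 17 to 104 with 1 library left out (17 without F1), 355 with DESeq2, 50 in a fit over all 16 libraries and 24 without F3 and F5. The cause was not tested. Fosb, Fos and Fosl1 rest on few counts in DKO controls, which limits the precision of their fold changes.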
